A study of Nematostella vectensis with 4 samples.

Results

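Cells with a high level of the gene NV2g011441000.1 were examined in single cell RNAseq data from gastrulae of the sea anemone *Nematostella vectensis*. A barcode was a member if it held at least 500 genes, at least 2 unique molecular identifiers (UMIs) of NV2g011441000.1 a level of at least 400 CPM of it, and 0 UMIs of *NvLWamide* and *Nvncol1*. A barcode is the tag of one droplet, taken here as one cell, a UMI marks one captured transcript, and CPM stands for UMIs of a gene per 1000000 UMIs of the barcode or of the sum of barcodes. The rule selected 654 of the 16089 barcodes with at least 500 genes, out of 18779 in all. Because the members were selected on NV2g011441000.1, its own level in them is a description and carries no test.

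All cells came from 1 pool of whole embryos at 24 h post fertilization, dissociated with trypsin and EDTA, for which the labels name no strain, genotype or treatment. The cells were loaded as 4 technical replicates on 1 chip of the 10x Genomics 3′ droplet method, and 4 libraries were made. No animal or culture separates the libraries, so every p-value below measures the spread between 4 samplings of 1 pool and not between embryos.

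The marker list of the study gives the ID NV2g011441000.1 both for the aboral ectoderm gene *Nvsix3/6* and for the pharyngeal ectoderm gene *NvfoxA*, so the gene is called by its ID here. As background, the gastrula of *N. vectensis* has an outer ectoderm and an inner mesoendoderm, and its ectoderm is divided along the oral-aboral axis into an aboral, a trunk and an oral territory. *Six3/6* genes encode homeodomain transcription factors that mark the aboral pole of this embryo and the anterior end of many other animals. *FoxA* genes encode forkhead transcription factors, which in *N. vectensis* mark the pharynx that forms around the blastopore at the opposite pole. Aboral and pharyngeal ectoderm cannot be told apart by this ID.

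The other genes followed are those that the same list assigns to a cell class. *Nvwnt2*, a Wnt ligand gene, marks trunk ectoderm. *NvsnailA*, a gene for a zinc finger transcription factor, marks mesoendoderm. *Nvncol3* and *Nvncol1* encode minicollagens of the stinging capsule of cnidocytes, and *Nvmucin* marks gland cells. *Nvelav* (an RNA-binding protein), *NvLWamide* (a neuropeptide) and *NvashA* (an achaete-scute transcription factor) mark neurons. *Nvath-like* (an atonal-related transcription factor), *Nvmyc1* (a Myc transcription factor) and *Nvnanos* (an RNA-binding regulator of translation) are listed as progenitor genes.

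Replicates 1 to 4 held 175, 96, 114 and 269 members. These were 4.76% (95% exact Clopper-Pearson interval 4.09 to 5.49%), 3.30% (2.68 to 4.02%), 5.03% (4.16 to 6.01%) and 3.72% (3.29 to 4.18%) of the barcodes with at least 500 genes, with a mean of 4.20% ± 0.822 (SD, n = 4). Replicates 1 and 3 held the larger shares, and their intervals did not overlap those of replicate 2. Intervals here cover counting error alone.

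The rule favours barcodes with many UMIs. Members had a median of 9736, 7193, 8669.5 and 4243 UMIs in replicates 1 to 4. Barcodes with 0 UMIs of NV2g011441000.1, *NvLWamide* and *Nvncol1*, called zero barcodes below, numbered 12876 and had medians of 5834, 4697, 4622 and 2049. Members were thus the deeper group in each library, and replicate 4 was the shallowest for both groups. Comparisons of shares of cells were therefore made after each barcode was thinned to a fixed number of UMIs. The 10 mitochondrial genes of the marker list took 0.756% ± 0.171 (SD, n = 4) of the members' UMIs and 1.01% ± 0.186 of those of zero barcodes. Across libraries 77 barcodes had a sequence that occurred in more than 1 library, and 0 of them belonged to members.

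Among members the level of NV2g011441000.1 spread over an order of magnitude. In replicate 1 it ran from 415 to 4020 CPM with a median of 1031, and in replicate 2 from 418 to 4150 with a median of 1156. In replicate 3 it ran from 405 to 4429 with a median of 1089, and in replicate 4 from 402 to 4103 with a median of 1144. The 4 medians lay within 1105 ± 57.2 (SD, n = 4) CPM, a narrow range beside the spread between cells of a library.

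**Figure D1:**
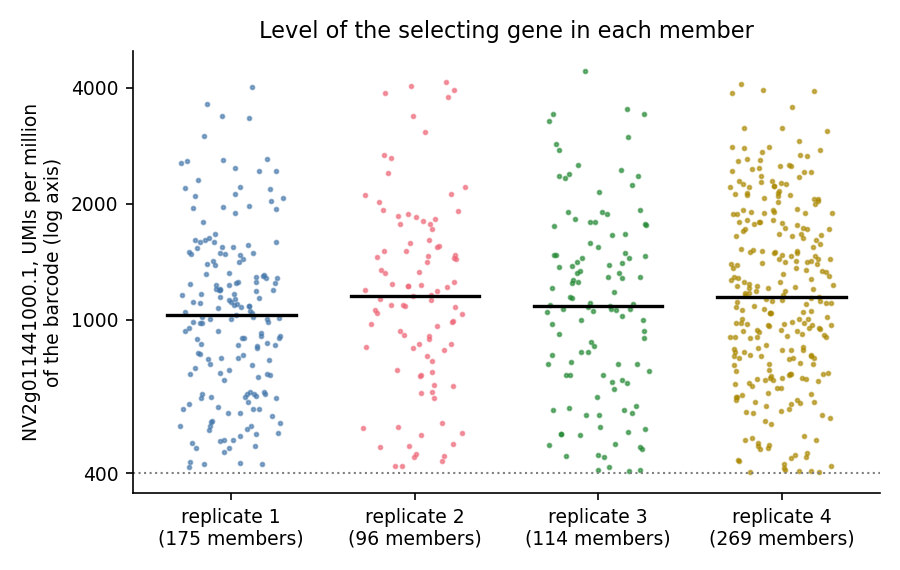
Each point is a member, with its level of NV2g011441000.1 in CPM on a log axis, by library. Black bars are medians (1031, 1156, 1089 and 1144 CPM in replicates 1 to 4) and the dotted line is the minimum of 400 that the rule set, so the lower edge of each cloud is fixed by the choice of members.

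Of the 5 highest levels, 4 were found in barcodes with 975 to 1129 UMIs. The member with the highest level, in replicate 3, had 5 UMIs of the gene among 1129, which is 4429 CPM. The next, in replicate 2, had 31 among 7470 UMIs, or 4150 CPM. By number of UMIs, the member with the most held 283 among 157509 in replicate 4, or 1797 CPM. The rule rested on few molecules in other barcodes, since 133 of the 654 members held exactly 2 UMIs of the gene, 86 of them in replicate 4.

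Some barcodes lay close to the threshold. The members just inside it had 401.8, 402.6 and 405.1 CPM, and the barcodes with at least 2 UMIs just outside it had 395.1, 392.2 and 386.0. Between 400 and 500 CPM there were 57 members. Another 714 barcodes held the gene below the rule's levels, 566 of them with 1 UMI. A further 52 barcodes reached both levels but held UMIs of an excluded gene, 39 of *NvLWamide* only and 13 of *Nvncol1*.

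Most transcripts of the gene lay in the members. They held 8669 of its 11693 UMIs, which is 77.05%, 76.1%, 81.3% and 68.4% in replicates 1 to 4, with only 5.68% of the UMIs of all genes. The summed level in members was 974, 981, 1032 and 1093 CPM, against 59.9 to 86.4 CPM over all barcodes of a library. The rule required members to hold the gene, so their share with a UMI of it is a description only. To set it beside barcodes chosen by other class genes, barcodes were thinned to 1000 UMIs. A UMI of NV2g011441000.1 was then found in 69.9% of 625 members (median depth 7193 UMIs), but in 0.788% (exact interval 0.451 to 1.28%) of 2031 barcodes with the same levels of *Nvwnt2* (median depth 7084) and in 0% (up to 1.97%) of 185 with those of *NvsnailA* (median depth 4709). In barcodes chosen in the same way by *Nvncol1* or *Nvmucin* the share was 2.40% or 1.63%. In barcodes chosen by *Nvncol3* it was 2.75% of 2432. Barcodes chosen by *Nvmyc1* had a larger pooled share, 10.2% of 187 (exact interval 6.23 to 15.4%), which was 12.5%, 7.69%, 0% and 15.4% in replicates 1 to 4, and those chosen by *Nvath-like* were at 4.28% of 327 (2.36 to 7.08%).

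To see whether the members resemble each other in genes that the rule did not use, all barcodes with at least 500 genes were clustered without the genes of the marker list. Of 20 clusters, the one numbered 5 held 559 of the 654 members. By library these were 88.6%, 86.5%, 87.7% and 82.2% of the members, with a mean of 86.2% ± 2.85 (SD, n = 4). Cluster 4 followed with 33 members, and 14 clusters held at least 1. At a resolution of 1.0 the members were divided between 2 clusters of 350 and 221, which differed in depth, with member medians of 5904.5 and 11312 UMIs, and together held 87.3% of the members.

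**Figure D2:**
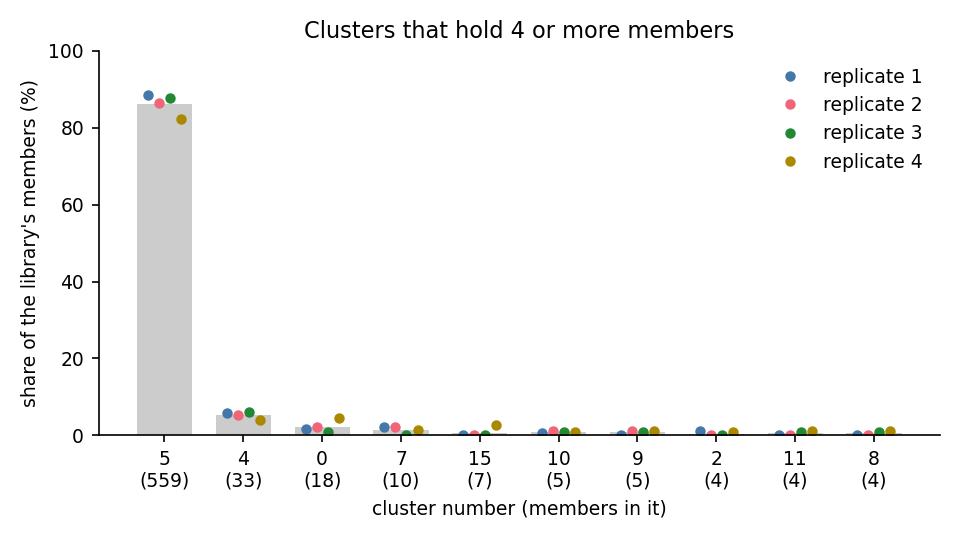
Share of each library's members (%) in each cluster that held 4 or more members. Bars are means over 4 libraries, points are libraries, and numbers in parentheses count members. Cluster 5 held 82.2 to 88.6% in every library and cluster 4 at most 6.14%.

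Members made up 49.6% of the 1128 barcodes of cluster 5, which held 78.4% of all UMIs of the gene. Another 325 of its barcodes were zero barcodes and 188 held the gene below the rule. The share of its barcodes with a UMI of the gene was larger in deeper ones, at 40.7% below 1000 UMIs, 52.2% up to 2000, 64.5% up to 5000 and 89.0% from there. The summed level stayed between 669 and 811 CPM over the same steps. Many barcodes of cluster 5 that missed the rule were therefore shallow ones, and the count of members depends on depth.

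Cluster 5 stood out by NV2g011441000.1 at 799.7 CPM, whereas the next cluster, number 12, had 55.8 CPM, where 1 member lay and where the level was 681.6 CPM in replicate 3 and at most 72.1 CPM in the other libraries. The leading levels of other class genes lay elsewhere. *Nvwnt2* was at 527 CPM in cluster 0 and 34.9 in cluster 5, *NvsnailA* at 202 CPM in cluster 6 and 24.0 in cluster 5, and *Nvmucin* at 1433 CPM in cluster 8 and 3.14 in cluster 5. *Nvmyc1* was at 217 CPM in cluster 16, 186 in cluster 10 and 60.5 in cluster 5, and *Nvath-like* at 413 CPM in cluster 10 and 45.2 in cluster 5. The label of ectoderm thus rests on the one gene that chose the cells, since the trunk ectoderm gene was low in them and no other ectoderm marker was in the list.

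The 95 members outside cluster 5 differed from the rest. Their median level of NV2g011441000.1 was 806 CPM, against 1144 for the 559 members inside, and 35 of them held only 2 UMIs of it. Their summed *Nvncol3* level was 1943, 631, 2185 and 1356 CPM in replicates 1 to 4. Inside cluster 5 it was 174, 16.98, 32.1 and 138 CPM, lower in each library. Single barcodes carried much of the outside sums, since 1 member of replicate 3 held 432 of 449 UMIs and 1 of replicate 1 held 357 of 480. Without the barcode with the most *Nvncol3* in each library the outside sums were 561, 179, 157 and 612 CPM. Of the outside members 10 lay in cluster 7, where *Nvncol3* was at 14466 CPM. These values are descriptions, since the clusters were made from the same cells.

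The members were next compared with zero barcodes to ask which other genes differ between them. UMIs were summed per library and group and tested with the quasi-likelihood method of edgeR with Benjamini-Hochberg adjustment, 4 sums against 4. Of 15298 genes tested, 3233 were higher in members (21.1%) and 3755 lower (24.5%) at an adjusted p under 0.05. A call is thus common in this comparison, and each call below is to be read against these shares. Scaling mattered for the balance of the calls. With library totals in place of TMM factors the median log2 fold change of all genes moved from -0.01 to -0.14, and the higher calls made up 33.4% of all calls in place of 46.3%.

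Of the class genes tested, the trunk, mesoendoderm, cnidocyte and gland genes were lower in members and 2 of the 3 progenitor genes were higher. *Nvwnt2* stood at 24.4, 22.6, 18.7 and 27.4 CPM in members of replicates 1 to 4 and at 197, 177, 183 and 219 CPM in zero barcodes. The groups were far apart in each library, with a log2 fold change of -2.90 ± 0.12 (SE, edgeR adjusted p = 2.38e-08). *NvsnailA* stood at 16.2, 26.9, 13.6 and 15.6 CPM in members and at 57.0, 60.5, 65.7 and 65.1 CPM in zero barcodes. Its groups did not overlap either (log2 fold change -1.72 ± 0.15, adjusted p = 4.95e-06), but after thinning to 1000 UMIs the change was -1.09 with an adjusted p of 0.155.

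The gland gene *Nvmucin* showed the same direction. It had 1.08, 0.868, 6.46 and 7.78 CPM in members and 29.6, 36.0, 36.4 and 35.9 CPM in zero barcodes (log2 fold change -2.85 ± 0.34, edgeR adjusted p = 6.04e-05). The members' values rest on 3, 1, 10 and 23 UMIs, and without replicate 4 the change was -3.61. The neuronal gene *Nvelav* differed less, with 10.4, 8.68, 9.05 and 9.81 CPM in members and 15.0, 13.9, 15.8 and 16.03 CPM in zero barcodes. Its log2 fold change was -0.53 ± 0.13 (adjusted p = 0.00662), and the call was lost after thinning to 1000 UMIs (-0.23, adjusted p = 0.83), with at least 3 UMIs and 1000 CPM of NV2g011441000.1 (adjusted p = 0.112) and without the top 5% of UMIs (adjusted p = 0.0549), while zero barcodes with *NvLWamide* or *Nvncol1* in the comparison group gave -1.49. *NvashA* was at 4.25 ± 3.06 CPM in members and 8.10 ± 2.47 CPM in zero barcodes (SD, n = 4) and was not called (adjusted p = 0.11). It was called with the library as a block (log2 fold change -0.96, edgeR adjusted p = 0.0433) and without replicate 2 (-1.32, adjusted p = 0.0321). With barcodes that held *NvLWamide* or *Nvncol1* added to the comparison group alone it reached -2.99 (adjusted p = 1.79e-05). The rule kept such barcodes out of the members. This value and the -1.49 of *Nvelav* thus follow at least in part from that exclusion, and no difference is read from them.

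The progenitor gene *Nvmyc1* was higher in members. It stood at 59.2, 45.1, 45.3 and 94.7 CPM in members and at 23.3, 19.3, 21.0 and 23.9 CPM in zero barcodes. Every member sum lay above every zero sum, and replicate 4 was the highest of the members (log2 fold change 1.65 ± 0.21, edgeR adjusted p = 7.81e-05; 1.34 without replicate 4). *Nvath-like*, a proneural gene, differed by less. Members had 55.7, 45.1, 50.4 and 49.7 CPM and zero barcodes 39.9, 39.4, 44.1 and 31.1 CPM (log2 fold change 0.52 ± 0.13, adjusted p = 0.00566). The lowest member sum was just above the highest zero sum, and after thinning to 1000 UMIs the gene was not called (0.47, adjusted p = 0.373). *Nvnanos*, at 7.94 ± 2.89 against 9.80 ± 0.65 CPM (SD, n = 4), was not called (adjusted p = 0.329).

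**Figure D3:**
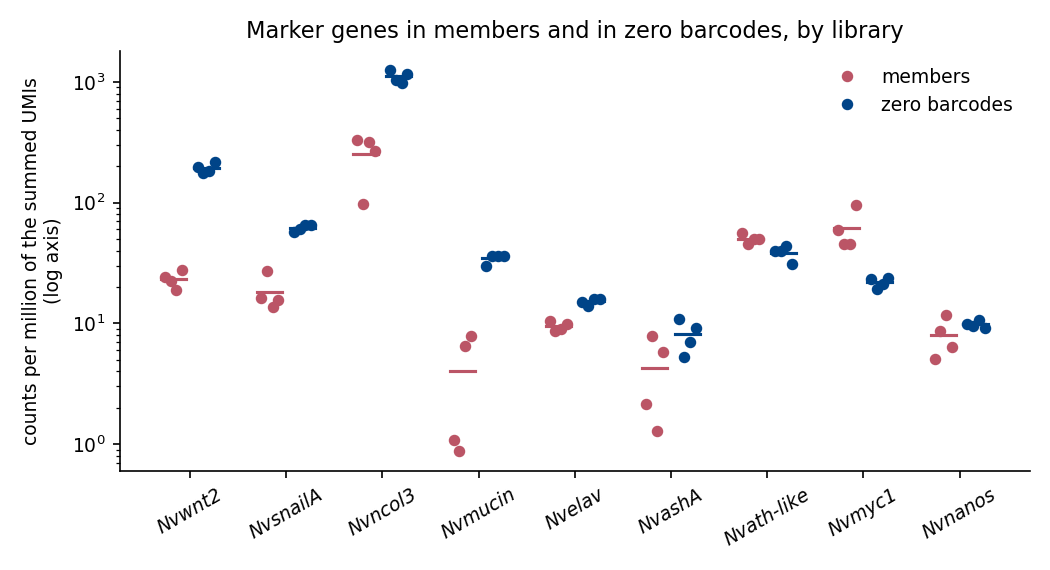
Levels (CPM) of 9 class genes in the summed UMIs of members (red) and zero barcodes (blue), on a log axis. Points are the 4 libraries and bars their means. *Nvwnt2*, *NvsnailA*, *Nvncol3*, *Nvmucin* and *Nvelav* lie lower in members in 4 of 4 libraries, and *Nvmyc1* and *Nvath-like* higher, while *NvashA* and *Nvnanos* overlap.

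*Nvncol3*, a minicollagen gene, was the most abundant class gene in both groups and varied between libraries. In members it had 331, 97.2, 318 and 269 CPM, and in zero barcodes 1260, 1043, 971 and 1165 CPM (log2 fold change -1.99 ± 0.29, edgeR adjusted p = 0.000216). Single barcodes again carried much of the members' sums, and without the barcode with the most *Nvncol3* in each library these were 205, 37.5, 41.4 and 183 CPM. Without the top 5% of barcodes by UMIs the log2 fold change was -2.70 (adjusted p = 0.000138), and after thinning to 1000 UMIs -2.96 (adjusted p = 5.31e-06). When members of cluster 5 alone were compared, an alternative chosen after the clusters were seen, the log2 fold change was -3.40 (adjusted p = 0.000222). After thinning to 1000 UMIs, 10.4% of members held an *Nvncol3* UMI. The share was 11.5% in *Nvwnt2* barcodes and 11.5% in *NvsnailA* barcodes, which are not expected to make capsule collagen, so the members' share lay at a level found in other classes. Replicate 4 was highest in members, zero barcodes, *Nvwnt2* barcodes and *Nvmucin* barcodes alike, at 18.5%, 27.6%, 19.5% and 29.9%. In *NvsnailA* barcodes replicate 3 was highest, at 17.4%, and replicate 4 was at 11.8%.

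At an equal depth of 1000 UMIs, to which 625 members and 11167 zero barcodes could be thinned, the shares of cells with a UMI were compared. A UMI of *Nvwnt2* was found in 2.35%, 1.06%, 2.68% and 4.02% of members and in 14.9%, 16.3%, 14.4% and 15.5% of zero barcodes. The means, 2.53% ± 1.21 and 15.3% ± 0.834 (SD, n = 4), differed in 4 of 4 libraries in the same direction (two-sided exact permutation p = 0.0286, the smallest that 4 against 4 can give, adjusted over 6 values p = 0.0857). The members' share was close to the mean of 2.45% ± 4.90 in *NvsnailA* barcodes, a class that is not expected to express this gene, although there it came from replicate 4 alone. Before thinning the shares were 13.02% and 31.9%, so the direction did not rest on thinning.

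For *Nvmucin* the thinned shares were 0.502% ± 1.00 in members and 3.39% ± 0.107 in zero barcodes (exact permutation p = 0.0286, adjusted p = 0.0857). For *NvsnailA* they were 1.26% ± 1.16 and 3.04% ± 0.894 (p = 0.0857, adjusted p = 0.171, exact), lower in members in 4 of 4 libraries, and before thinning 10.3% and 11.2%. For *Nvncol3* they were 7.96% ± 7.39 and 17.7% ± 6.87 (exact permutation p = 0.143, adjusted p = 0.214), and before thinning 34.8% and 36.1%. The thinned share of *Nvncol3* was also lower in members in 4 of 4 libraries. Median genes per thinned barcode were 615 ± 16.5 in members and 620 ± 15.7 in zero barcodes (exact permutation p = 0.571). No value of this family passed 0.05 after adjustment, which 4 libraries against 4 could reach only if 4 of the 6 values had the smallest p.

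The progenitor genes were present in a minority of members. *Nvmyc1* had a UMI in 170 of the 654 members (26.0%) and *Nvath-like* in 154 (23.5%), against 7.56% and 6.69% of zero barcodes. After thinning the shares were 5.72% ± 0.488 (SD, n = 4) for *Nvmyc1* and 5.35% ± 2.42 for *Nvath-like* in members, and 2.21% ± 0.219 and 2.71% ± 0.232 in zero barcodes. *Nvmyc1* was then higher in members in each library, whereas *Nvath-like* was at 2.01% in members of replicate 4 and 2.60% in its zero barcodes. Both genes were found together in 70 members, where the product of their shares would give 40.0. The median depth of these 70 was 19804.5 UMIs, and shares before thinning depend on depth. Conversely, 306 members (46.8%) held no UMI of *Nvwnt2*, *NvsnailA*, *Nvncol3*, *Nvmucin*, *Nvelav* or *NvashA*, and their median depth was 5544.5 UMIs.

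The 10 mitochondrial genes did not move as one list. Of these, 4 were called higher in members and 1 lower, and their median log2 fold change was 0.25 against -0.01 for all genes tested. The higher ones were small changes. Cytochrome c oxidase subunit 5A, a respiratory chain protein, had a log2 fold change of 0.24 ± 0.07 (943 ± 50.2 against 872 ± 13.96 CPM, SD, n = 4), and with library totals in place of TMM factors all 4 calls were lost, as they were without replicate 3. Cytochrome c oxidase subunit 5B was lower, at 1.52 ± 1.18 against 6.35 ± 0.259 CPM (log2 fold change -1.72 ± 0.33, edgeR adjusted p = 0.00145; -2.46 without replicate 1). Its member values rest on 9, 1, 1 and 4 UMIs. NADH-ubiquinone oxidoreductase chain 2, by far the most abundant of the 10, stood at 8289, 6026, 4269 and 6609 CPM in members and at 11300, 8544, 6801 and 9101 CPM in zero barcodes. Its level differed more between libraries than between the groups, and it was called only when the library was taken as a block (log2 fold change -0.40, edgeR adjusted p = 1.51e-06), with library totals (-0.51, adjusted p = 0.0488) or after thinning (-0.61, adjusted p = 0.00668).

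Outside the marker list the genes with the largest differences are named by ID, because the files pair no names with them. NV2g008453000.1 rose most, with 75.05, 78.1, 77.6 and 67.0 CPM in members and 0.353, 0.214, 0.266 and 0.580 CPM in zero barcodes (log2 fold change 7.67 ± 0.19, edgeR adjusted p = 9.53e-10). It was found in 212 members (32.4%) and in 37 zero barcodes (0.287%), and members held 64.7% of its UMIs. NV2g008652000.1 followed with 47.4, 44.3, 39.4 and 29.1 CPM against 0.247, 0.161, 0.466 and 0.261 CPM (log2 fold change 7.27 ± 0.25, adjusted p = 7.59e-09), in 94 members (14.4%) and 25 zero barcodes (0.194%). After thinning to 1000 UMIs the log2 fold changes of NV2g008453000.1 and NV2g008652000.1 were 5.08 and 4.77. Both were thus nearly absent from zero barcodes, while most members also held no UMI of either. The 714 barcodes with NV2g011441000.1 below the rule lay between, with NV2g008453000.1 at 13.2 CPM in 9.66% and NV2g008652000.1 at 5.07 CPM in 2.10% of them. By cluster, NV2g008453000.1 was at 68.4 CPM in cluster 5 and at most 5.54 CPM in any other, and NV2g008652000.1 at 29.7 CPM and at most 4.73 CPM. These IDs were chosen as high in members, most of which lie in cluster 5. They were also not barred from the clustering, so their levels by cluster are descriptions and add no separate support.

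NV2g006375000.1 fell most. It had 2.15, 0.868, 0 and 2.71 CPM in members and 51.1, 36.8, 38.96 and 37.0 CPM in zero barcodes (log2 fold change -4.41 ± 0.34, edgeR adjusted p = 2.17e-06), and was high in clusters 1 and 18, at 213 and 253 CPM. The 714 barcodes with NV2g011441000.1 below the rule held it at 41.2 CPM, beside 41.4 CPM in pooled zero barcodes, so they did not lie between. NV2g022973000.1 had 0, 0, 2.59 and 4.74 CPM in members and 0.0705, 57.4, 59.5 and 46.0 CPM in zero barcodes, with a log2 fold change of -4.11 ± 1.55 (adjusted p = 0.0489). It was highest in cluster 8, at 1416 CPM. Barcodes below the rule held it at 14.2 CPM, and pooled zero barcodes at 36.8 CPM. Replicate 1 was nearly without it in members and zero barcodes alike. That library lists its genes in another order than the other 3, and in its zero barcodes 16 of 15298 genes were more than 10-fold below every other library, against 0 such genes in each of replicates 2, 3 and 4. Without replicate 1 the log2 fold change was -3.97 (adjusted p = 2.1e-05), and without replicate 2, 3 or 4 the gene was not called. The call was also lost under 6 other settings (thinning to 1000 UMIs, all barcodes with 0 UMIs of NV2g011441000.1, 5000 UMIs or more, at least 1000 genes, the stricter rule, and without the top 5% of UMIs), with adjusted p between 0.0522 and 0.126.

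Trunk ectoderm, marked by *Nvwnt2*, was compared next, as the only other ectodermal territory with a gene of its own in the marker list. Barcodes with the same levels of *Nvwnt2* and none of the excluded genes numbered 1899. Only 6 barcodes met both rules, 2 in replicate 1 and 4 in replicate 4, and they were left out. The product of the shares of both rules would give 77.2. Of 11893 genes tested, 2716 were higher (22.8%) and 3008 lower (25.3%) in members. *Nvwnt2* barcodes held NV2g011441000.1 at 3.79, 1.85, 4.20 and 6.97 CPM, and members held *Nvwnt2* at 22.7, 22.6, 18.7 and 24.8 CPM, which follows from the way both groups were chosen.

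*NvsnailA* and 2 of the 3 progenitor genes were higher in members than in *Nvwnt2* barcodes. *Nvmyc1* was at 59.4, 45.1, 45.3 and 95.1 CPM in members and at 24.3, 16.9, 26.2 and 29.5 CPM in *Nvwnt2* barcodes (log2 fold change 1.33 ± 0.24, edgeR adjusted p = 0.000504). *Nvath-like* was at 55.8, 45.1, 50.4 and 49.9 CPM against 30.0, 14.2, 40.9 and 24.3 CPM (0.88 ± 0.24, adjusted p = 0.0084). Neither gene overlapped between the groups, although *Nvath-like* missed the threshold without replicate 4 (adjusted p = 0.0500) and after thinning (adjusted p = 0.0593). *NvsnailA* was low in both groups, at 18.0 ± 6.04 CPM in members and 5.29 ± 2.32 CPM in *Nvwnt2* barcodes (SD, n = 4; 1.56 ± 0.30, adjusted p = 0.000966). The third progenitor gene, *Nvnanos*, was at 7.95 ± 2.88 against 8.38 ± 2.42 CPM and was not called (-0.18 ± 0.29, adjusted p = 0.649). *Nvncol3*, *Nvmucin* and *Nvelav* were not called, with log2 fold changes of 0.22 ± 0.38, -0.24 ± 0.55 and -0.04 ± 0.19, and *Nvncol3* turned to -1.15 (adjusted p = 0.0877) when members of cluster 5 alone were used. Heat shock protein 75 kDa, a mitochondrial chaperone, was the 1 mitochondrial gene of 9 tested that was called (30.3 ± 5.77 against 16.6 ± 2.54 CPM, 0.78 ± 0.17, adjusted p = 0.0019). With the library as a block NADH-ubiquinone oxidoreductase chain 2 was also called, lower in members (log2 fold change -0.45, edgeR adjusted p = 4.81e-07, against -0.43 and adjusted p = 0.0816 without the block).

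The IDs chosen against zero barcodes were also followed here, in member sums without the 6 barcodes that met both rules. NV2g008453000.1 had 75.3, 78.1, 77.6 and 66.5 CPM in members and 1.21, 0, 0 and 1.21 CPM in *Nvwnt2* barcodes (log2 fold change 6.42 ± 0.31, edgeR). NV2g008652000.1 had 47.5, 44.3, 39.4 and 29.2 CPM against 0.172, 0, 0.700 and 0.268 CPM (7.05 ± 0.35). Since only 3.46% of all barcodes with these levels of *Nvwnt2* held a UMI of NV2g011441000.1, most of them are zero barcodes themselves, and these values add no separate support.

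**Figure D4:**
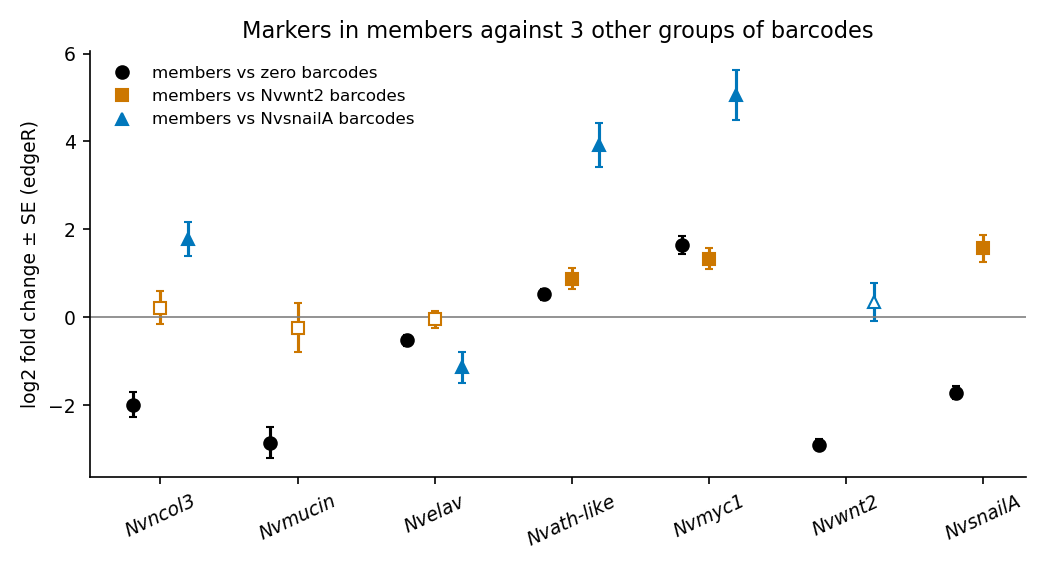
Log2 fold changes ± SE (edgeR) of 7 class genes in members against zero barcodes (circles), *Nvwnt2* barcodes (squares) and *NvsnailA* barcodes (triangles), where they were tested. Filled symbols are calls at an adjusted p under 0.05. All 3 comparisons use the same members, apart from 6 left out against *Nvwnt2* barcodes because they met both rules. Most *Nvwnt2* and *NvsnailA* barcodes are zero barcodes themselves, so the 3 comparisons are not independent. *Nvmyc1* and *Nvath-like* lie above 0 in each, from 0.52 to 5.06.

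Mesoendoderm was represented by 176 barcodes chosen in the same way by *NvsnailA*, and 0 of them were members, where the product of shares would give 7.15. Of 8973 genes tested, 1426 were higher in members (15.9%) and 1665 lower (18.6%). *Nvmyc1* was at 0, 0, 0 and 3.98 CPM in *NvsnailA* barcodes, against 59.2, 45.1, 45.3 and 94.7 CPM in members (log2 fold change 5.06 ± 0.57, edgeR adjusted p = 6.92e-06). *Nvath-like* was at 1.79, 14.9, 2.73 and 0 CPM there, against 55.7, 45.1, 50.4 and 49.7 CPM (3.92 ± 0.49, adjusted p = 2.26e-05). Both were thus lower in *NvsnailA* barcodes than in members, where *Nvnanos* had too few UMIs to be tested (14, 10, 18 and 19 in members and 1, 1, 0 and 4 in *NvsnailA* barcodes). The sizes rest on few UMIs, and over left-out replicates *Nvmyc1* reached 8.82 without replicate 4 and *Nvath-like* 5.52 without replicate 2 and 3.099 without replicate 4. *Nvwnt2*, low in both, was not called (0.34 ± 0.43, adjusted p = 0.584; without replicate 4 it was called higher in members, at 1.58, adjusted p = 0.0269).

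*Nvncol3* was called higher in members than in *NvsnailA* barcodes (1.79 ± 0.39, edgeR adjusted p = 0.0025), with 254 ± 108 against 67.2 ± 41.4 CPM (SD, n = 4). After thinning that call was lost (0.39, adjusted p = 0.73), and the members' sum without the barcode with the most *Nvncol3* in each library was 37.5 to 205 CPM. *Nvelav* was called lower, at 9.49 ± 0.776 against 19.7 ± 10.6 CPM (-1.14 ± 0.35, adjusted p = 0.0213), and was lost without replicate 2 or replicate 3. NV2g008652000.1 had 0 UMIs in the *NvsnailA* barcodes of all 4 libraries, 2264113 UMIs together. Against a floor of 3 UMIs over the group, its 39.1 CPM in the pooled members were at least 29.5-fold higher. NV2g008453000.1 had 1.79, 2.99, 0 and 3.98 CPM there, against 67.0 to 78.1 CPM in members. Only 5.35% of all barcodes with these levels of *NvsnailA* held a UMI of NV2g011441000.1. Most of them are thus zero barcodes themselves, and the values of these IDs, chosen against zero barcodes, add no separate support.

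To see how other class genes follow the level of NV2g011441000.1, barcodes with at least 5000 UMIs were thinned to 5000 and grouped by the UMIs of the gene that remained. *Nvwnt2* was found in 38.9% of the 5341 barcodes with 0 UMIs, in 21.7% of 157 with 1, in 7.97% of 138 with 2 to 3, in 6.25% of 192 with 4 to 7 and in 2.20% of 91 with 8 or more. The share at 0 exceeded that at 4 or more by 34.2 ± 1.09 percentage points (SD, n = 4), and in each of 4 libraries by at least 32.7. *NvsnailA* was found in 12.6%, 16.6%, 10.1%, 6.77% and 3.30% of the same steps, so its share was highest at 1 UMI. Barcodes of low level thus held more *Nvwnt2* and *NvsnailA* than those of high level.

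*Nvath-like* and *Nvmyc1* went the other way. *Nvath-like* was found in 7.51%, 9.55%, 15.9%, 19.3% and 21.98% of the steps from 0 to 8 or more, and *Nvmyc1* in 7.40%, 10.2%, 17.4%, 22.4% and 27.5%. These are pooled shares, and the order did not hold in each library for either gene. *Nvath-like* was at 25.4% at 4 to 7 UMIs and 13.04% at 8 or more in replicate 1, and at 24.3% and 14.3% in replicate 3. It was at 14.3% at 1 UMI and 6.67% at 2 to 3 in replicate 2, and at 7.34% at 0 UMIs and 2.27% at 1 in replicate 4. *Nvmyc1* was at 6.66% at 0 UMIs and 5.71% at 1 in replicate 2, and at 6.83% and 4% in replicate 3. In replicate 1 it was at 17.9%, 17.9% and 17.4% from 2 to 3 UMIs upward. At 8 or more the libraries disagreed in size, with *Nvmyc1* at 17.4%, 36.4%, 19.0% and 36.0% of 23, 22, 21 and 25 barcodes. *Nvncol3* showed no such order, at 26.1%, 28.7%, 34.1%, 22.9% and 15.4%. These shares are descriptions with no test, as the steps were made from the gene that chose the members.

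**Figure D5:**
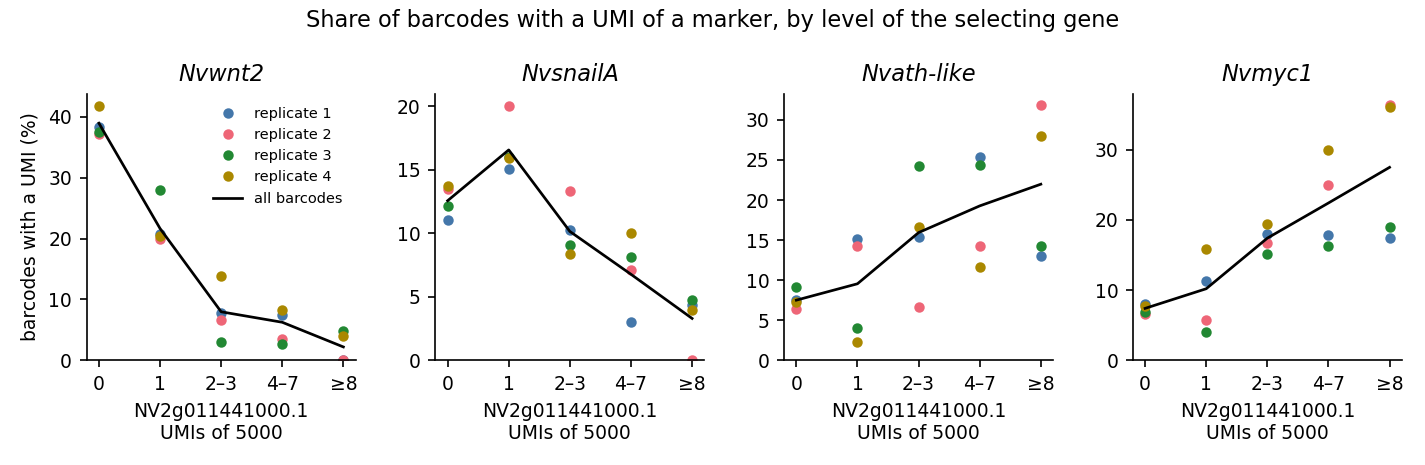
Share (%) of barcodes with at least 1 UMI of *Nvwnt2*, *NvsnailA*, *Nvath-like* or *Nvmyc1*, by UMIs of NV2g011441000.1 in barcodes thinned to 5000 UMIs. Points are libraries and the line is all barcodes. *Nvwnt2* was at 38.9% in the first step and 2.20% in the last, and *Nvmyc1* at 7.40% and 27.5%.

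Few genes were called when members were compared among themselves by the level of NV2g011441000.1. The 398 members with at least 5000 UMIs were split at the median level of their library, which gave summed levels of 1399, 1741, 1467 and 1540 CPM in the upper groups and 653, 634, 659 and 729 CPM in the lower ones. Of 8118 genes tested, 18 were higher in the upper members (0.222%), the selecting gene among them, and 40 lower (0.493%). With the library as a block these counts were 32 and 94, and without replicate 4 they were 5 and 11. At an unadjusted p under 0.05 there were 713 genes. Upper and lower groups also differed in depth. The upper sums held 1092510, 297528, 636010 and 1113821 UMIs in replicates 1 to 4. The lower sums held more in each library, at 1553221, 783516, 841653 and 1492815 UMIs. With sums of this size, few calls do not show that few genes follow the level.

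None of the class genes tested was called by edgeR between upper and lower members. *Nvwnt2* had 19.2, 10.1, 9.43 and 19.8 CPM in upper and 24.5, 28.1, 23.8 and 27.5 CPM in lower members (log2 fold change -0.73 ± 0.26, edgeR adjusted p = 0.35). Its groups did not overlap, but it was not called. How many of all genes tested separate in the same way was not counted, so no difference is read from this. *NvsnailA* was at 10.7 ± 5.62 against 21.8 ± 10.6 CPM (SD, n = 4; -1.05 ± 0.41, adjusted p = 0.453), and *Nvath-like* at 64.6 ± 14.2 against 45.5 ± 8.76 CPM (0.46 ± 0.19, adjusted p = 0.514). *Nvncol3* was at 166 ± 109 against 334 ± 212 CPM (-1.09 ± 0.57, adjusted p = 0.633), and with no filter on low counts it was called (adjusted p = 1.7e-09). *Nvmyc1* was at 73.1 ± 31.4 against 58.3 ± 24.7 CPM (0.24 ± 0.31, adjusted p = 0.923). NV2g008453000.1 and NV2g008652000.1 had log2 fold changes of -0.23 ± 0.17 and 0.52 ± 0.26 and were not called. Each group of this comparison held 35 to 63 members a library.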

How the data were processed

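Dissociated cells of whole gastrulae at 24 h post fertilization were measured in 4 technical replicate libraries by single cell RNAseq. The authors ran CellRanger on reads from introns and exons alike, and the deposited matrices hold UMI counts with no normalization, one for each gene in each barcode. The headers, the submitters' processing notes (Cell Ranger 7.1.1, Seurat 4) and the study's methods name different versions. The 24526 genes were joined by ID. The table of RefSeq genes at hand matched 0 of the IDs, so no sequence was used, and *NvNgal* was not analysed here. Library totals ran from 22980631 to 56880930 UMIs, and summed members from 1152112 UMIs in replicate 2 to 2955354 in replicate 4, so that low genes are counted least precisely in replicate 2.

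Barcodes with at least 500 genes were kept. No doublets were called. Leaving out barcodes above the 95th percentile of UMIs was an alternative, as was the study's 10% mitochondrial filter. Clusters were made in Seurat 5.3.0 (LogNormalize, 4000 variable genes by vst without the marker list, 30 principal components, Louvain at resolution 0.5). UMIs summed per library and group were tested with edgeR 4.0.16 (TMM, filterByExpr, quasi-likelihood, standard error as the log2 fold change over the square root of F), in R 4.3.3. DESeq2 1.42.0, RLE factors, library totals, no filter, thinning and each library left out were alternatives. Shares were tested with scipy 1.17.1 by exact permutation. CPM are UMIs per 1000000. The fits were also run on simulated sums. These held no library effect beyond the total, unlike the paired sums here, so no conclusion is drawn from them.

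Each library gave 1 sum to either group, which pairs the sums. Correlations of their deviations were 0.525, 0.194, 0.135 and 0.335 for members and zero barcodes of replicates 1 to 4, and 0.466, 0.0168, -0.0302 and 0.228 for upper and lower members. The genes named were those of the marker list, its 10 mitochondrial genes, and the 2 largest rises and 2 largest falls against zero barcodes among genes called, moved alike in 4 of 4 libraries and with at least 20 CPM in the higher group. Members, lists and tests were chosen with earlier results of these data known.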

Additional observations from a re-analysis of the deposited data

Results flagged for a closer look

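Of 65 groups of 4 library values examined, 4 held a library far from the other 3, where chance gives about 1 in 20. In zero barcodes *Nvmucin* was at 29.6 CPM in replicate 1 and at 35.9 to 36.4 CPM in the others. NV2g006375000.1 was at 51.1 CPM in zero barcodes of replicate 1 and at 36.8 to 38.96 CPM in the others. In members thinned to 1000 UMIs, a *Nvmucin* UMI was found in 2.01% of those of replicate 4 and in 0% of the other libraries. The median genes per thinned member were 640 in replicate 4 and 605.5 to 609.5 in the others.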

How the results depend on the processing

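The library as a block changed no call of the class genes other than those given in the report, and gave 3427 higher and 3943 lower genes against zero barcodes. Thinning to 1000 UMIs left 766 higher and 1129 lower genes of 9485 tested against zero barcodes, 555 and 701 of 3880 against *Nvwnt2* barcodes, and 126 and 135 of 1388 against *NvsnailA* barcodes, with fewer genes tested. With no filter there were 2318 higher genes against *NvsnailA* barcodes, and 75 higher and 236 lower between upper and lower members. The block gave 32 and 94 there, and leaving out each replicate gave 5 to 12 and 9 to 29. The member share of 4.20% was 5.18% with at least 1000 genes, 1.99% with at least 3 UMIs and 1000 CPM, 8.54% with at least 1 UMI and 1.55% after thinning. The cluster with most members held 54.0% at a resolution of 1.0. The gap in *Nvwnt2* share was 22.4 points after thinning to 2000 UMIs. Changes of sign were seen for ATP synthase F1 assembly factor 1 after thinning (-0.11), and against *Nvwnt2* barcodes for *Nvncol3* in members of cluster 5 alone (-1.15), *Nvmucin* (-0.75 to 0.20 over left-out replicates) and *Nvelav* (-0.11 to 0.095). The cause was not tested. The settings with library totals and with members of cluster 5 alone were chosen after the data were seen.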
